A study of Caenorhabditis elegans with 2 samples.

Results

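The genes described here are the 346 genes of the Ensembl annotation of build WBcel235 (ce11) whose class is small nucleolar RNA (snoRNA), among 46890 genes on the nuclear chromosomes of C. elegans. Each was taken with its gene body and the 1000 bp upstream, and the summits of CEH-90 peaks inside that window were read. By position, 150 of the 346 lay inside an intron of a protein-coding gene on the same strand, called the host. The remaining 196 are called standing alone, which means only that they had no host. Of the 196, 124 were intergenic and 38 overlapped a protein-coding gene on the opposite strand. Another 34 overlapped one on the same strand without lying inside an intron. The 150 intronic genes had 131 hosts, and 1 of them lay in introns of a pair of hosts.

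The peaks came from ChIP-seq of CEH-90, a homeodomain protein. Both samples were whole hermaphrodites of strain OP210, genotype unc-119(ed3) III; wgIs210, a stable line with CEH-90 fused at its C terminus to GFP and FLAG, and chromatin was recovered with an antibody to GFP. They were L1 larvae 6 hours after synchronization by bleaching and starvation, so each peak averages over the cell types of the whole animal. The series held 1 group of 2 biological replicates, whose cultures are not described, and the sequence that drives the fusion is not given in the labels. With no second condition, the values below are counts, shares and positions, with no test. Signal at a gene that depends on the fusion and signal that any highly active start would give cannot be told apart without worms that lack the fusion, which were not analysed here.

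SnoRNAs guide the chemical modification of ribosomal and other RNAs in the nucleolus. Box C/D snoRNAs guide 2′-O-methylation by fibrillarin, and box H/ACA snoRNAs guide the conversion of uridine to pseudouridine by dyskerin. In animals many snoRNAs are cut out of the introns of host genes, often genes of ribosomal proteins and of other factors of protein synthesis, and so depend on the promoter of the host. Others are transcribed from promoters of their own, which in nematodes can include box A and box B, the internal promoter elements of tRNA genes that RNA polymerase III uses.

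The sequences shown first include the strongest intronic and standing-alone members off the first chromosome, with the letters that sort snoRNAs into classes in capitals. R151.11, with a peak signal of 89.0, and C51F7.3, with 81.4, are printed as well and are not among the strongest. F28D1.13, in rps-23, and R151.11, in rpl-6, lie in hosts on different chromosomes and had 70.4% identical columns in a global alignment. Of the pairs that share a peak, K11H12.12 and K11H12.13 in rpl-15 had 63.7%, F54E7.10 and F54E7.11 in rps-12 60.1%, R151.11 and R151.12 in rpl-6 47.6%, C51F7.3 and C51F7.4 47.1%, and Y24D9A.9 and Y24D9A.10 in rpl-7A the fewest, 63 of 221 columns. These 6 pairs were chosen after the sequences were seen, and no baseline of unrelated pairs was computed. Capitals mark ACA at the position 3 bases before the 3′ end, the letters of H/ACA snoRNAs, and in C51F7.3 the C box TGATGA near the 5′ end and the D box CTGA near the 3′ end. Y17G7B.25, the strongest standing-alone member outside the first chromosome, holds neither.
F28D1.13, chrIV:12390526-12390655, minus strand: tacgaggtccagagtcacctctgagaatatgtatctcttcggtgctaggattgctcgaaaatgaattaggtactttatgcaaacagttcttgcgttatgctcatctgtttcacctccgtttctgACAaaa
R151.11, chrIII:7208613-7208744, plus strand: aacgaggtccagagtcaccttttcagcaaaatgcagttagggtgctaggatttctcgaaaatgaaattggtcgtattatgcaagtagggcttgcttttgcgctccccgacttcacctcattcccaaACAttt
K11H12.12, chrIV:653902-654030, minus strand: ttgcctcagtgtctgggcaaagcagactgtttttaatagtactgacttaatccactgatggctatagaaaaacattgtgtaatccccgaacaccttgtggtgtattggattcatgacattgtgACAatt
K11H12.13, chrIV:654229-654361, minus strand: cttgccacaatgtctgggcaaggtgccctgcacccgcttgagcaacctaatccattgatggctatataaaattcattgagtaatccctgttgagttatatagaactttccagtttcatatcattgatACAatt
Y17G7B.25, chrII:12041957-12042146, minus strand: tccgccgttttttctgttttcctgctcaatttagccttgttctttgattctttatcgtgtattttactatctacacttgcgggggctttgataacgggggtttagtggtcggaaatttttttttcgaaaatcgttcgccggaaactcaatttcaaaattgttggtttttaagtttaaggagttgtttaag
C51F7.3, chrV:12303708-12303783, plus strand: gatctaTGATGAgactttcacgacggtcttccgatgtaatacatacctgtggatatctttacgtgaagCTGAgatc

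The peak windows of F28D1.13, Y17G7B.25 and K11H12.12 follow, from 50 bp before to 50 bp after the summit and on the strand of the snoRNA. Capitals mark GGCC, the letters that an earlier analysis of these peaks had found at their summits. The windows of F28D1.13 and K11H12.12 hold GGCC, that of F28D1.13 at 3 places. The window of Y17G7B.25 holds none.
F28D1.13, chrIV:12391286-12391386, minus strand: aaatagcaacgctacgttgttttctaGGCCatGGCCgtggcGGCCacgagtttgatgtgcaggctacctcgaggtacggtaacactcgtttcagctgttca
Y17G7B.25, chrII:12042310-12042410, minus strand: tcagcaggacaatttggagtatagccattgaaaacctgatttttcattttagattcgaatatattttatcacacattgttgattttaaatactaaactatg
K11H12.12, chrIV:654879-654979, minus strand: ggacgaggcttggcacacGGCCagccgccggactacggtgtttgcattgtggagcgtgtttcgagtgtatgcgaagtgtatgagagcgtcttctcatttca

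Further windows, from 100 bp before to 100 bp after the summit, are printed for peaks that lay away from any protein-coding start. ZK994.7 has the highest signal of the 13 such peaks. The other 4 windows are the ones among the 13 that hold GTTCGANNC, the core of box B, and were chosen for that after their sequences were seen. Capitals mark GTTCGANNC and GGNNNAGTG, letters like those of box A, on either strand, and in the window of C51F7.3 the box A letters stand on the opposite strand. The window of ZK994.7 holds neither.
ZK994.7, chrV:8500443-8500643, plus strand: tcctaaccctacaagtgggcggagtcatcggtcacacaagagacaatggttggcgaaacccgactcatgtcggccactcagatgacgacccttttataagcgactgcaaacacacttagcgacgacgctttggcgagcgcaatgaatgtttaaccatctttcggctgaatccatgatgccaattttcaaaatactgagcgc
M106.6, chrII:10840164-10840364, plus strand: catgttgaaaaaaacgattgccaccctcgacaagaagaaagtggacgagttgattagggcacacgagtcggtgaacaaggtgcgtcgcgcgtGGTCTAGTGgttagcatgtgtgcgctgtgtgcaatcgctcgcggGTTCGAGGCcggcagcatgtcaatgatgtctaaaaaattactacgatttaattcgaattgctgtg
C05D2.15, chrIII:5602160-5602360, minus strand: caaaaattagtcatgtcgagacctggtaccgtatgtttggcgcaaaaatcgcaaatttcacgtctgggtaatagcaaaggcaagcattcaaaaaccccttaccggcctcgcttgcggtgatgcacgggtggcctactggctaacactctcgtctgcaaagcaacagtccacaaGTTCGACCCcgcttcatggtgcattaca
F32E10.10, chrIV:7573949-7574149, plus strand: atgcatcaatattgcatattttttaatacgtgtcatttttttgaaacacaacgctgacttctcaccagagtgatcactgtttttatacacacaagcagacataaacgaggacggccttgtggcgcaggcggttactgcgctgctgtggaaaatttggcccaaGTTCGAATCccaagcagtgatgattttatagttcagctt
C51F7.3, chrV:12303518-12303718, plus strand: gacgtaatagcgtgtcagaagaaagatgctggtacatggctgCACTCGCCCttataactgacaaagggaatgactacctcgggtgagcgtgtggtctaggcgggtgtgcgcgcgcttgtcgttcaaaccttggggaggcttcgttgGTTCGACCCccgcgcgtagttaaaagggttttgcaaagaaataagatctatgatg

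CEH-90 peaks lay at 39 of the 346 snoRNA genes. That is 11.3%, with an exact 95% interval of 8.14% to 15.1%, counting summits of the list of 765 peaks thresholded on the irreproducible discovery rate (the IDR list). In these files that list is the 765 strongest peaks of the pooled list, and a peak in it can rank far apart in the replicates or be missing from one. The share was 2.49% over all nuclear genes, 3.60% over all genes but piRNA genes and 4.86% over the 19973 protein-coding genes. Intervals are Clopper-Pearson intervals over genes or peaks and cover counting error only. They take genes as independent, although neighbours can share 1 summit.

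No other class of noncoding gene with 20 or more members had a share as high. Of 129 snRNA genes, whose products take part in splicing, 8 had an IDR summit (6.20%, interval 2.72% to 11.9%), and that interval overlaps the one of snoRNAs. Of 612 tRNA genes, 12 had one (1.96%, interval 1.02% to 3.40%). Among lincRNA genes the share was 2.58%, among miRNA genes 1.92%, among the class annotated only as ncRNA 1.16%, among pseudogenes 0.329% and among piRNA genes 0.202%. None of the 100 antisense RNA genes and none of the 20 rRNA genes had one, and the upper limits of their intervals were 3.62% and 16.8%.

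**Figure D1:**
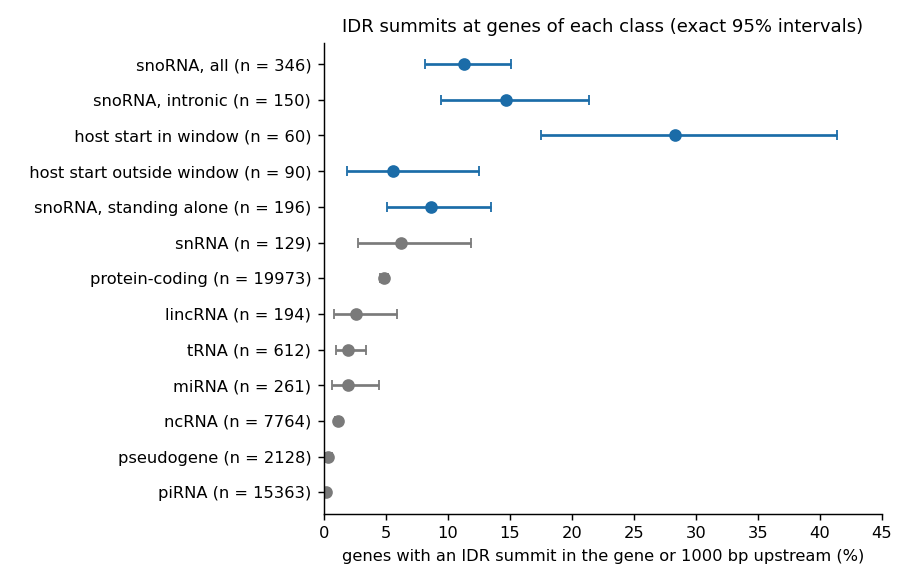
Share of genes with an IDR summit in the gene or the 1000 bp upstream (percent, x axis) for snoRNA genes and their subsets (blue) and for other classes (grey), with exact 95% intervals as bars. Intronic snoRNA genes with a host start in the window stood highest, at 28.3%, and those without at 5.56%.

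The snoRNA windows covered 0.376% of the nuclear genome and held 34 distinct IDR summits, 4.44% of the list. Of the pooled-list peaks that are not in the IDR list, which include background, 0.698% lay in these windows. With all 30000 pooled peaks, 192 of 346 snoRNA genes held a summit (55.5%, interval 50.1% to 60.8%), beside 48.2% of all genes but piRNA genes, so the wider list set snoRNA genes apart far less. The 307 genes without an IDR summit included 154 with no pooled summit at all. The strongest pooled peak at the others had a median signal of 32.3, and the highest, 71.3 at W08G11.6, fell just short of the 71.4 of the last IDR peak. The weakest IDR peak at a snoRNA gene, near T04A8.17, had 71.8.

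The 34 peaks were mostly of middling strength. The authors' signal per peak, which has no stated scaling and only ranks peaks within a list, ran from 71.8 to 484 with a median of 88.6, beside a median of 107 over all 765. Their ranks ran from 92 to 748, 1 was among the 100 strongest, and 11 were in the upper 50% of the list. Each of 5 peaks lay in the windows of a pair of snoRNA genes, so 10 of the 39 genes shared a summit, and no peak served more than 2.

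Position sorted the 34 peaks into 3 groups, a grouping chosen after the positions were seen. In 13 peaks, with 17 intronic snoRNA genes, the summit lay at a start of the host, meaning no more than 1000 bp before or 200 bp behind the start of an annotated transcript. In 8 peaks, with 8 snoRNA genes that stood alone, it lay at the start of some other protein-coding gene. The last 13 peaks, with 14 snoRNA genes, lay at no protein-coding start. Protein-coding starts thus held 61.8% of these 34 peaks, beside 80.6% of the other IDR peaks.

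**Figure D2:**
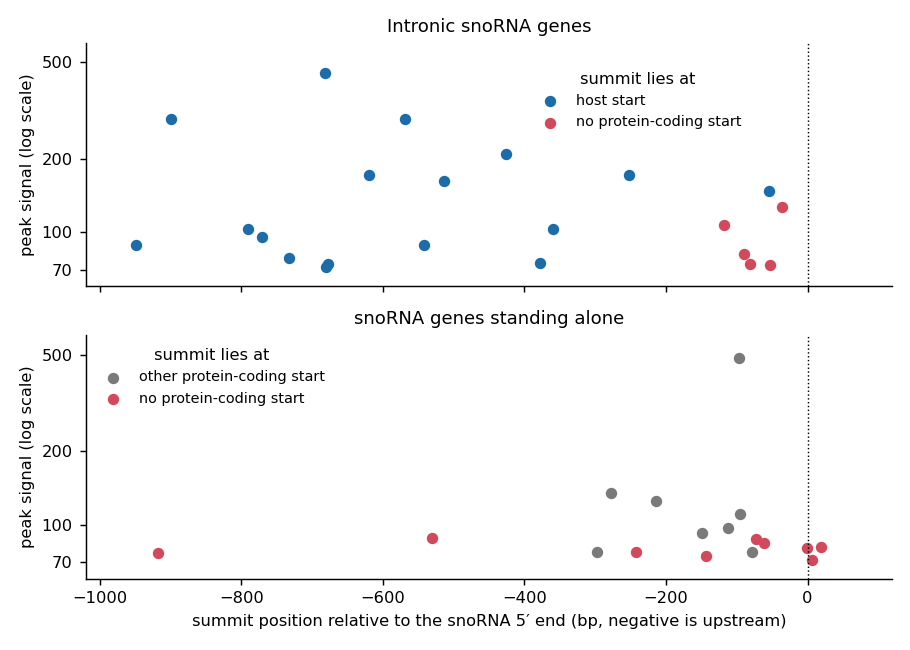
Signal of the peak (log scale, y axis) against the position of its summit relative to the 5′ end of the snoRNA gene (bp, negative is upstream), 1 point per snoRNA gene and IDR summit, for intronic genes above and standing-alone genes below. Summits at a host start (blue) spread over the upstream window with a median of -619 bp. Summits at another protein-coding start (grey) and at no protein-coding start (red) gathered near the snoRNA, with medians of -131 bp and -77 bp.

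Among intronic snoRNA genes, 22 of 150 had an IDR summit (14.7%, interval 9.43% to 21.4%), and nearness to the host start went with it. Where a start of the host lay inside the 1000 bp window, 17 of 60 had a summit (28.3%, interval 17.5% to 41.4%). Where none did, 5 of 90 had one (5.56%, interval 1.83% to 12.5%). The intronic genes as a whole began a median of 1308.5 bp from the nearest upstream host start, and those with an IDR summit a median of 448 bp. Because the window reaches upstream, a snoRNA close behind a host promoter takes in that promoter by construction.

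**Figure D3:**
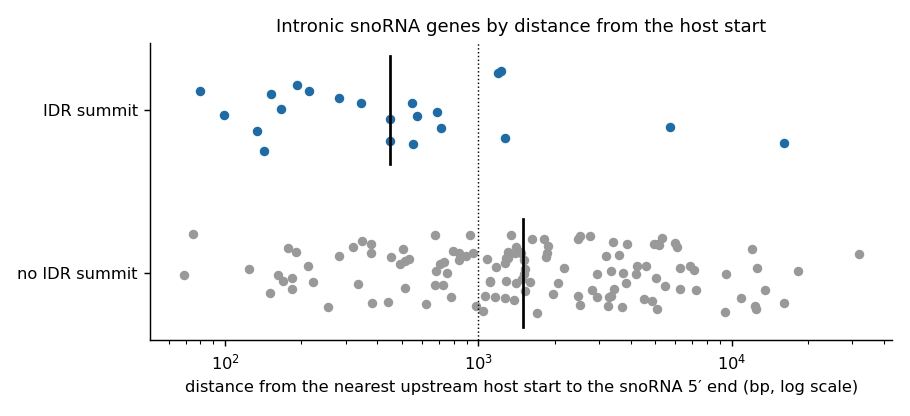
Distance from the nearest upstream host start to the 5′ end of each intronic snoRNA gene (bp, log scale), 1 point per gene, for the 22 genes with an IDR summit and the 128 without. Black bars mark medians, the dotted line marks 1000 bp, and points are spread vertically only for legibility.

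The strongest peak at an intronic member lay at the start of rps-23, a small-subunit ribosomal protein gene that holds F28D1.13. Its signal was 452 in the pooled data, 223 in replicate 1 and 220 in replicate 2, and it ranked 102, 109 and 99 in the 3 lists. The summit, at chrIV:12391336-12391336, lay 681 bp upstream of the snoRNA and 283 bp upstream of rps-23, but also 251 bp upstream of dpm-3, which starts on the other side. The replicates placed it within 2 bp of the pooled summit. F28D1.13 is an H/ACA snoRNA by its letters.

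The peak at rpl-15, a large-subunit ribosomal protein gene, served K11H12.12 and K11H12.13, at 899 and 568 bp from them. Its signal was 292 in the pooled data, 139 in replicate 1 and 135 in replicate 2. The peak of K07C5.11 lay 284 bp upstream of nol-56, which encodes a core protein of box C/D snoRNPs, with 210 in the pooled data, 98.3 in replicate 1 and 93.4 in replicate 2. At rps-12, with F54E7.10 and F54E7.11, the signal was 172, with 84.6 and 85.0 in the replicates. At these 4 host starts the signals were nearly equal as numbers, though the replicate lists share no stated scale. The ranks in replicates 1 and 2 were 144 and 156 at rpl-15, 194 and 213 at nol-56, and 213 and 244 at rps-12.

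The peak of C06A1.9 lay 170 bp upstream of cdc-48.1, which encodes an AAA ATPase that extracts ubiquitinated proteins, with a pooled signal of 163 and 86.9 and 78.0 in replicates 1 and 2. Y37E3.20 lies in pcyt-2.1, named for a phosphoethanolamine cytidylyl transferase, and its summit, 54 bp upstream of the snoRNA, was also 391 bp upstream of an annotated pcyt-2.1 start that lies downstream of the snoRNA. Its signal was 148, with 58.3 and 78.7 in the replicates. At rpl-7A, with Y24D9A.10 and Y24D9A.9, the signal was 103, with 37.8 and 64.2, and the peak ranked higher in replicate 2. At fbxl-2, an F-box gene with B0393.10, it was 95.4, with 43.1 and 45.3. The remaining host-start peaks were those of rpl-6, rps-29, rpl-24.1, iff-2 and rps-13, with pooled signals of 72.2 to 89.0.

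Of the 13 host-start peaks, 8 lay at hosts that encode ribosomal proteins, and these served 12 of the 17 snoRNA genes. Another 8, partly the same, lay also at the start of a second protein-coding gene, so they cannot be given to 1 promoter. The summits lay 77 to 633 bp upstream of the host start, with a median of 244 bp. By their letters 13 of the 17 snoRNA genes were of the H/ACA class, beside 45 of all 150 intronic genes. The share among intronic genes with a host start in the window is not given here.

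By letters alone, 58 of the 346 genes were H/ACA, 14 were C/D and 274 were neither. The search asked for exact letters at fixed ends of the annotated gene. For H/ACA it asked only for ACA 3 bases before the 3′ end, so a gene outside that class can match. An IDR summit lay at 16 of the 58 (27.6%, interval 16.7% to 40.9%), at 3 of the 14 (21.4%, interval 4.66% to 50.8%) and at 20 of the 274 (7.3%, interval 4.52% to 11.0%). Among intronic genes alone 14 of 45 H/ACA genes had one, beside 7 of 99 with neither. Among standing-alone genes 2 of 13 did, for which the interval runs from 1.92% to 45.4%, beside 13 of 175 with neither. Of the 16 H/ACA genes with a summit 13 were those at a host start, so class and nearness to a host start are mixed here. The class was read from the annotated ends, so a gene annotated a few bases too long falls under neither.

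Seen from the hosts, 23 of 131 had an IDR summit at a start (17.6%, interval 11.5% to 25.2%), beside 4.46% of all protein-coding genes. In 13 of the 23 that summit also lay in the window of a snoRNA, and in 10 it lay outside. Hosts of 2 or more snoRNAs had one in 7 of 16 cases (43.8%, interval 19.8% to 70.1%), and hosts of 1 in 16 of 115 (13.9%, interval 8.17% to 21.6%). The first interval is wide and touches the second. Among the 7, only nol-56 and cdc-48.1 are not ribosomal protein genes, so number of snoRNAs and kind of host are mixed in this comparison.

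Ribosomal protein genes, taken by symbol, made up 9 of the 23. Of 14 ribosomal protein hosts, those 9 had a summit at a start (64.3%, interval 35.1% to 87.2%). Of the 67 ribosomal protein genes that host no snoRNA, 23 had one (34.3%, interval 23.2% to 46.9%), so a high share was not limited to hosts, and the 2 intervals overlap. Among the 117 hosts that encode other proteins, 14 had one (12.0%, interval 6.70% to 19.3%), above the 4.46% of protein-coding genes in general. That ribosomal protein genes carry many of these peaks was known from an earlier analysis of the same files.

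The 9 ribosomal protein hosts were rps-23, rpl-15, rps-12, rps-4, rpl-7A, rpl-6, rps-29, rpl-24.1 and rps-13, with signals from 452 down to 72.2. Only rps-4 among them had its peak, of signal 123, outside the snoRNA window, since its Y43B11AR.7 begins 752 bp from the start. Among the other hosts, pop-1, the TCF factor of Wnt signalling, had the strongest peak, of signal 241, followed by nol-56 with 210 and madf-11, a MADF-domain gene, with 195. hsp-1, a cytosolic Hsp70, had 173, cdc-48.1 had 163 and hrpu-2, named for hnRNP U, had 159. Y71G10AR.5, the snoRNA of hrpu-2, begins 16098 bp from the start, so the peak at the promoter is far from it.

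pcyt-2.1 had 148, and his-72, a histone H3.3 gene, and ttc-7 had 115 each, the former at 978 bp upstream and so near the edge of the window. zip-2, a bZIP factor of the response to infection, had 98.0, wwp-1, a ubiquitin ligase, 97.1, and fbxl-2 95.4. The zip-2 summit lay 166 bp upstream of an annotated zip-2 start, and summit and start both lay downstream of its snoRNA, K02F3.15. mdt-8, a Mediator subunit, had 76.9, and its summit had no counterpart within 100 bp in either replicate list. iff-2, one of the eIF5A genes, had 74.3. The 23 host peaks thus ran from 72.2 to 452.

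The hosts with most snoRNAs differed. nol-56 held 4, of which K07C5.11, 142 bp from the start, had the promoter peak in its window, while K07C5.12, K07C5.10 and K07C5.18, at 1116 to 2066 bp, had no summit of either list. rpl-6 held 3, and its peak of signal 89.0, with 37.5 and 43.2 in the replicates, lay in the windows of R151.11 and R151.12 but not of R151.13, 953 bp from the start. top-2, which encodes topoisomerase II, also held 3 and had no IDR summit, its strongest pooled peak ranking 1195 with a signal of 59.6. A further 13 hosts held 2 snoRNAs, and 115 held 1.

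Genes for the proteins of snoRNPs and of snoRNA maturation gave a related picture, in a list of 22 names of which 21 were matched. An IDR summit lay at a start of 7 of the 21 (33.3%, interval 14.6% to 57.0%), beside the 4.46% of protein-coding genes. They were nol-56 with 210, fib-1, the methyltransferase fibrillarin, with 202, nola-3, named for the H/ACA protein NOP10, with 132, Y48A6B.3, the counterpart of NHP2, with 111, dao-5, a nucleolar phosphoprotein, with 103, nol-58, the partner of nol-56, with 102, and ruvb-2, an assembly ATPase, with 74.1. The start of dkc-1, which encodes dyskerin, had a pooled peak of signal 53.0, below the list's limit, garr-1, the counterpart of GAR1, 26.9, and snu-13 31.6. Of the processing enzymes, dbr-1, xrn-2 and crn-3 had no pooled summit at a start, and of the 6 lsm genes matched none had an IDR summit, lsm-5 coming closest with 69.3.

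Standing-alone genes had an IDR summit in 17 of 196 cases (8.67%, interval 5.13% to 13.5%). By placement these were 12 of 124 intergenic genes (9.68%) and 3 of 38 that overlapped a protein-coding gene on the opposite strand (7.89%). The others were 2 of 34 that overlapped one on the same strand (5.88%). The strongest of all 34 peaks was at a standing-alone gene, F39B2.14, with 484 in the pooled data, 224 in replicate 1 and 264 in replicate 2. Its summit, 97 bp upstream of the snoRNA, lay 36 bp from the start of tmem-107 and 421 bp from that of rps-26, a ribosomal protein gene. F39B2.14 lies on the strand of a protein-coding gene but overlaps an exon or lies outside its introns, and so has no host by the rule. F37F2.4 had 135, with 42.2 and 88.0 in the replicates. Its summit lay 277 bp from the snoRNA and 286 bp from the start of F37F2.2.

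Y17G7B.25, an intergenic gene, had 125, with 54.4 and 78.6 in the replicates, at 214 bp from the snoRNA and 550 bp from ippk-1, named for an inositol phosphate kinase. Y53F4B.47 had 111, with 48.2 and 56.5, at 96 bp from the snoRNA and 125 bp from cmtr-1, named for a cap methyltransferase. Y53F4B.48 had 97.2, with 35.5 and 63.8, at 113 bp from the snoRNA and 410 bp from gst-27, a glutathione S-transferase gene. W06H8.17 had 92.2, with 53.2 and 40.5, at 149 bp from the snoRNA and 689 bp from W06H8.6. These 6 peaks all lay at another protein-coding start by the 1000 bp window, and each was found in both replicates. Except at F39B2.14, each summit lay nearer to the snoRNA than to that start.

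Next in strength among the standing-alone genes were 4 peaks at no protein-coding start. W01H2.11 had 88.2, with 26.8 in replicate 1 and 63.1 in replicate 2, at 530 bp upstream. F32E10.10 had 87.5 and 46.9 in replicate 1, and no summit within 100 bp in replicate 2. ZK484.9 had 84.4, with 30.6 and 53.5. C51F7.4 had 81.4, with 21.7 and 61.8, and the same summit lay 90 bp upstream of its neighbour C51F7.3, in frm-7. All 3 of those seen in both lists ranked higher in replicate 2.

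The 17 standing-alone summits lay close to the snoRNA. Their median position was -113 bp, and 15 of the 17 lay from 300 bp upstream to 100 bp downstream of the 5′ end (88.2%), beside 50% of the weaker pooled summits in the same kind of window. Intronic summits had a median of -527.5 bp, with 7 of 22 in that narrower stretch (31.8%, beside 48.3% of weaker pooled summits). Over all snoRNA genes 22 of 346 had an IDR summit in the narrower stretch (6.36%, interval 4.03% to 9.47%), beside 2.09% of all genes but piRNA genes. The stretch was chosen after the positions were seen. It was 2.76% for protein-coding genes, 1.63% for tRNA genes and, again, 6.20% for snRNA genes.

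The 13 peaks at no protein-coding start had 14 snoRNA genes, 5 intronic and 9 standing alone. Of the 155 IDR peaks of the genome that lay at no protein-coding start, these 13 made 8.39% (interval 4.54% to 13.9%), whereas 21 of the 610 IDR peaks at such a start lay in a snoRNA window (3.44%, interval 2.14% to 5.21%). Among weaker pooled peaks the shares were 0.654% and 0.789%. Of the 14 pairs of gene and summit, 12 lay within the narrower stretch and 11 from 150 bp upstream to 100 bp downstream of the 5′ end. Nearness was not particular to this group. Of the 8 pairs at another protein-coding start, all 8 lay within the first stretch and 5 within the second. By letters 2 of these 14 genes were H/ACA and 3 were C/D.

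These peaks had lower signals than the other groups and mostly ranked higher in replicate 2. Their signal ran from 71.8 to 127 with a median of 80.1, and 1 of the 13 was in the upper 50% of the IDR list. In replicate 1 the 12 that were found ranged from 19.4 to 72.8 with a median of 29.9, and in replicate 2 the 12 found ranged from 39.2 to 67.7 with a median of 48.8. At host starts the medians were 50 and 71.1. Of the peaks found in both lists, 9 of 11 at no protein-coding start ranked higher in replicate 2, as did 5 of 8 at another protein-coding start and 3 of 12 at a host start. The other IDR peaks did so in 319 of 686 cases (46.5%), and those of them at no protein-coding start in 73 of 129 (56.6%). The replicate lists differ in length and share no stated scale, so this is a description. In lists of the 765 strongest peaks of 1 replicate alone, such peaks in snoRNA windows numbered 12 in replicate 2 and 7 in replicate 1.

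ZK994.7 had the strongest of these peaks, of signal 127, with 72.8 in replicate 1 and 56.1 in replicate 2. It is a short gene of 67 bp in an intron of pxn-1, named for a peroxidasin, 5690 bp behind the nearest upstream host start, and its summit lay 36 bp upstream of it. Y38F2AR.14, in Y38F2AR.12, had 107, with 41.9 and 67.7, at 118 bp upstream. C05D2.15, in madf-11, had 73.7, with 25.7 and 47.3, at 81 bp upstream, apart from the stronger peak of 195 at the madf-11 start. M106.6, in an intron of mix-1, a condensin gene, had 73.1, with 29.2 and 43.0, at 53 bp upstream. C51F7.3, whose summit is shared with C51F7.4 as given above, is the last of the 5 intronic genes with a peak at no protein-coding start. At 4 of the 5 the peak ranked higher in replicate 2.

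**Figure D4:**
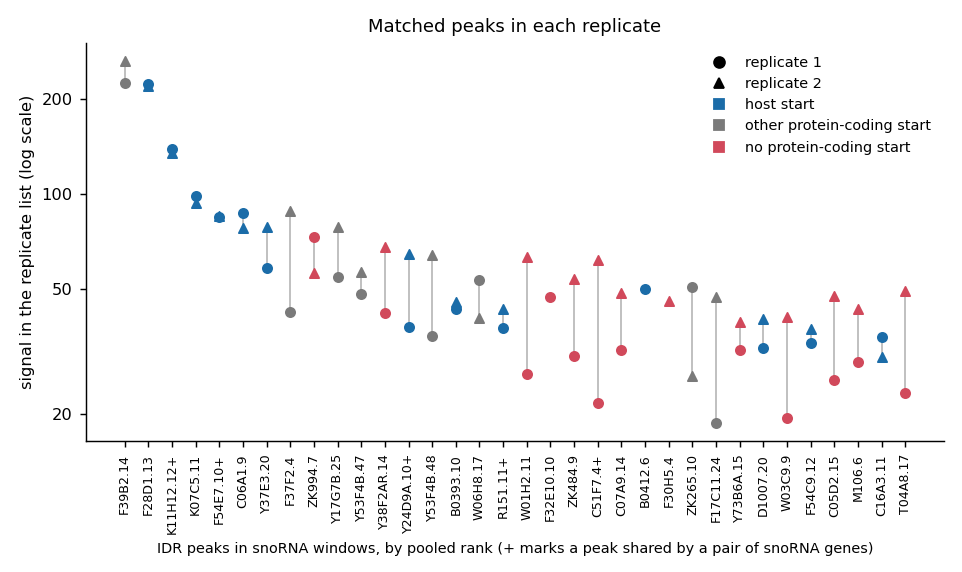
Signal of the matched peak in replicate 1 (circles) and replicate 2 (triangles), log scale, for the 34 IDR peaks in order of pooled rank, coloured by where the summit lies. The strongest host-start peaks nearly coincide, and most peaks at no protein-coding start (red) have replicate 2 above replicate 1. The median signal is higher in replicate 2 at host starts and at other protein-coding starts as well. The replicate lists share no stated scale, so heights are not comparable between replicates.

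Both replicate lists held a summit within 100 bp for 31 of the 34 peaks (91.2%), beside 93.7% of all 765 IDR peaks. The exceptions were the peaks of F32E10.10 and of B0412.6 in rps-29, which had none in replicate 2, and that of F30H5.4, which had none in replicate 1. Within 200 bp all 34 were matched. The replicate lists are long and include background, and 17 of the 34 were among the 765 strongest of both. The median distance of a matched replicate summit from the pooled summit was 8 bp.

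The sequence at the summits was read next. GGCC stood within 50 bp of the summit in 12 of the 34 peaks (35.3%, interval 19.7% to 53.5%), close to the 281 of 731 other IDR peaks (38.4%) and above the 9.68% of pooled peaks outside the IDR list. Peaks at no protein-coding start had it in 7 of 13 cases and those at a start in 5 of 21, with intervals of 25.1% to 80.8% and 8.22% to 47.2%. The motif reads the same on both strands, so each place counts once.

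Letters like those of tRNA promoters were seen when the member windows were read, and were then counted. GTTCGANNC, searched on both strands within 100 bp of the summit, stood at 4 of the 13 peaks at no protein-coding start (30.8%, interval 9.09% to 61.4%) and at none of the 21 at a start (upper limit 16.1%). It stood at 6 of the other 142 IDR peaks at no protein-coding start (4.23%), at 10 of all 731 other IDR peaks (1.37%) and at 1.68% of pooled peaks outside the list. On their own strand 441 of 612 annotated tRNA genes hold it (72.1%). GGNNNAGTG stood at 10 of the 34 peaks (29.4%), at 54 of 731 (7.39%) and at 4.6% of pooled peaks outside the list. Of the 10, 6 were among the 13 peaks at no protein-coding start (46.2%, interval 19.2% to 74.9%). The other 4 were among the 21 at a start (19.0%, interval 5.45% to 41.9%). Other IDR peaks of these 2 kinds held it in 9.15% and 6.96% of cases. Only 178 of the 612 tRNA genes hold GGNNNAGTG on their own strand (29.1%), so most tRNA genes lack these letters. Since both were read off these windows, the shares describe them and support nothing.

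Other spellings were tried as well. A longer form of box B, of 11 letters, stood at 2 of the 34 peaks, at 0.547% of other IDR peaks and at 0.602% of pooled peaks outside the list. Forms of box A of 10 and 12 letters stood at 3 and 5 of the 34, beside 2.74% and 6.43% of other IDR peaks. No annotated tRNA gene lay within 200 bp of any of the 34 summits. Repeated sequence was scarce there too, as 33 of the 34 windows held no 36-base word found elsewhere in the genome, and in that of rpl-7A 7.23% of such words recurred.

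The same letters were then looked for next to every snoRNA gene, whether or not it had a peak. On the strand of the gene, GTTCGANNC stood within the 100 bases before the 5′ end of 17 of 346 snoRNA genes (4.91%, interval 2.89% to 7.75%), beside 0.289% of the other genes outside the piRNA class and 0.205% of protein-coding genes. Both kinds had it, 8 of 150 intronic genes and 9 of 196 standing alone. The last base of the motif lay a median of 6 bases before the gene, with a range of 0 to 59. In 7 of the 17 GGNNNAGTG stood in the same 100 bases. In C05D2.15, printed above, the motif runs into the annotated gene and so is not among the 17. In C51F7.3, which is among the 17, the motif ends 35 bases before the gene and lies inside the annotated neighbour C51F7.4.

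Of the 17 genes 5 had an IDR summit, namely F32E10.10, C51F7.3, F30H5.4, W03C9.9 and M106.6 (29.4%, interval 10.3% to 56%), beside 34 of the 329 without these letters (10.3%, interval 7.26% to 14.1%). The intervals overlap, and the peak windows of all 5 were among those read when the letters were seen. The peak windows of F32E10.10, C51F7.3 and M106.6 hold GTTCGANNC within 100 bp of the summit. Those of F30H5.4 and W03C9.9 do not. A pooled summit lay at 13 of the 17 (76.5%, interval 50.1% to 93.2%) and at 179 of the 329 (54.4%, interval 48.9% to 59.9%). Where there was one, the strongest lay at a median of -73 bp with the letters and of -280 bp without, and in the narrower stretch for 12 of 13 and 91 of 179 genes. Among the 765 strongest peaks of single replicates, replicate 1 had a summit at 1 of the 17 and replicate 2 at 4.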

How the data were processed

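CEH-90 ChIP-seq was read from peak lists in build ce11, which holds the same chromosomes as the WBcel235 genome and Ensembl release 115 annotation used. The lists cover each replicate (23796 and 30000 peaks), both pooled (30000) and an optimal IDR list (765, the strongest of the pooled list). By the submitters' file descriptions, they derive from alignments and 1 control, not analysed here. The aligner, peak caller and IDR threshold were not given in the sources used here. Signal (column 7 of the deposited lists) has no stated scaling and only ranked peaks. The authors' q-value, deposited as −log10 in column 9, served 1 alternative (0.05 or less). Lists in ce10 were not used. The lists hold no read counts, so depth is unknown.

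Summits were placed by scripts in Python 3.11.15 with NumPy 2.4.6, exact intervals came from SciPy 1.17.1 and alignments from Biopython 1.88. Code was tested on simulated data. Sequences come from the WBcel235 genome, 1-based. Annotated starts can lie downstream of true starts, because many C. elegans transcripts are trans-spliced. Members, gene lists and motifs were chosen with earlier results of these data known.

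Genes named in full were the snoRNA genes of the 10 strongest intronic and 10 strongest standing-alone peaks, hosts with an IDR summit at a start and the hosts with most snoRNAs. Others, such as those with box B letters, were named after their values were seen. Alternatives covered window length, list, replicates, host rule, match distance and motif span.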

Additional observations from a re-analysis of the deposited data

How the results depend on the processing

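Counts fell with narrower windows and stricter lists. With 500 bp upstream, 25 snoRNA genes had an IDR summit in place of 39, 10 of them intronic in place of 22, and the median position moved from -252 to -97 bp (-402 bp with 2000 bp). In the gene body alone 2 genes did, both standing alone and none intronic (0 of 150), with 2 distinct peaks. The upper 50% of the IDR list left 13 genes, 9 intronic and 4 standing alone, with 11 distinct peaks, 13 hosts, 7 genes in the narrower stretch near the 5′ end, and 1 peak at no protein-coding start. Restricted to the 765 strongest peaks of each replicate, 17 peaks were found in both, in place of 31.

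Taking 1 replicate at a time, and as many of its strongest peaks as the IDR list holds, gave 32 to 33 snoRNA genes, 19 to 21 intronic, 12 to 13 standing alone, 27 to 29 peaks, 17 to 23 hosts and 16 to 19 genes in the narrower stretch. The median position was -225 bp without replicate 1 and -389.5 bp without replicate 2, beside a standard deviation of 116 bp between them. Peaks at no protein-coding start numbered 12 without replicate 1 and 7 without replicate 2, in place of 13. Of the 32 genes without replicate 1, 31 were among the 39, and of the 33 without replicate 2, 29 were. The cause was not tested. The other 39 recomputed values stayed within 1.5 times the reported count or, for the position, within that standard deviation. The single-replicate settings for the position, the narrower stretch and the peaks away from starts were chosen after seeing the data.

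No paired analysis was possible because the series holds 1 group. Depth is unknown, so a snoRNA gene with no summit is not shown to lack CEH-90.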
